A study of Mus musculus with 8 samples.

Results

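The 7 mouse genes that encode inhibitors of cyclin-dependent kinases (CDKs), Cdkn1a, Cdkn1b, Cdkn1c, Cdkn2a, Cdkn2b, Cdkn2c and Cdkn2d, were followed across 4 treatments of λ820 (Lambda-820) cells. They were chosen by name as the complete set, and every probe that the platform annotation gives to one of them was taken, which made 13 of the 25697 probes on the array. All 7 genes passed the detection filter with at least 1 probe and stood among the 7947 genes tested. λ820 is a cultured mouse lymphoma line described by its labels as Myc-driven, and all groups share this 1 line. Treatment lasted 24 h, with DMSO as the solvent control at a dilution of 1000-fold, with 10 µM RVX2135, an inhibitor of the BET bromodomain proteins, with 10 µM VE-821, an inhibitor of the kinase ATR, or with both drugs, each at 10 µM. Each group had 2 one-colour Illumina arrays, so n = 2 per group for every value below. The study asked how a BET inhibitor and an ATR inhibitor act together on these cells.

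CDK inhibitors hold cells in the G1 phase by binding the kinases that drive entry into S phase. The Cip/Kip proteins p21 (Cdkn1a), p27 (Cdkn1b) and p57 (Cdkn1c) bind complexes of cyclins with their kinases, foremost those of Cdk2, whereas the INK4 proteins p16 (Cdkn2a), p15 (Cdkn2b), p18 (Cdkn2c) and p19 (Cdkn2d) bind Cdk4 and Cdk6 and keep cyclin D away from them. The Cdkn2a locus also encodes ARF, which restrains Mdm2 and so stabilises p53. Loss of the Cdkn2a locus or of p53 is a common event in lymphomas that Myc drives, and Myc is known to repress several of these genes.

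Between 11012 and 11478 probes (42.9% to 44.7%) were detected per array, and replicate arrays correlated at 0.995 to 0.996 over the tested genes. The deposited background-subtracted intensities had medians of 97.8 to 151.2 over these genes. Values below are log2 intensities after background correction and quantile normalization. An offset of 16 was added to the intensity before log2 was taken, so a fold change understates the change of a dim probe. Comparisons used limma's two-sided moderated test over all genes, fitted to all 8 arrays, and a gene was called at an adjusted p under 0.05. The sources do not say whether replicates were separate cultures, and the p-values therefore cover only the spread between these arrays, which may be technical. In these bulk samples a change in the RNA per cell and a change in the share of cells that hold the RNA cannot be told apart.

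Of 10 listed B-lineage markers 8 had a probe, and 6 of these were detected on every array (Cd79a, Cd79b, Ebf1, Cd22, Blnk and Cd37), while Pax5 and Ms4a1 were detected on none. Sums given here run over every listed marker with a probe, kept or not, with negative intensities left out. For the B lineage the summed intensity was 5233 to 6238 with DMSO, 2404 to 2821 with RVX2135, 2420 to 2831 with VE-821 and 497 to 590 with both drugs. Of 9 T and NK cell markers with a probe 5 were kept. The sum over all 9 was 481 to 553, 524 to 556, 618 to 676 and 2244 to 2640 in the same order. Prf1 made up most of that sum, at log2 8.50 to 11.56. The other kept markers were Cd2, detected on 6 arrays, Cd3d and Klrb1c, each on 3, and Cd3g, on 2. Cd3e was detected on 2 arrays and not kept, while Cd4, Cd8a and Nkg7 were detected on no array. Of 9 myeloid markers with a probe 2 were kept, and sums over all 9 were 24.0 to 24.1, 10.3 to 11.5, 66.6 to 95.5 and 1.36 to 6.17. No marker of erythroid cells and platelets was kept. Of 7 markers of stroma and endothelium with a probe 2 were kept, Pecam1 and Fbln1. All 7 summed to 118 to 144, 43.9 to 62.2, 73.8 to 78.0 and 25.1 to 29.4. These sums differed between the treatments, and their part in the results on the CDK inhibitor genes was not tested.

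With RVX2135 4 of the 7 genes rose and none fell, against a background of 30.5% of all genes called in this comparison (15% higher and 15.4% lower). With VE-821 2 rose and 2 fell, where 23.8% of all genes were called (12.1% higher and 11.7% lower). With both drugs 5 rose and 1 fell, where 59.7% of all genes were called (28.9% higher and 30.8% lower). These counts take the brightest probe of each gene, and Cdkn2c is counted as a fall with VE-821 and with both. Its other kept probe was not called in either, at 0.26 (adjusted p = 0.188) and -0.10 (adjusted p = 0.515). Calls that were lost when an array was left out are named with each gene below. The median log2 change of the 7 genes was 0.52 with RVX2135, 0.08 with VE-821 and 1.10 with both. The median over all genes lay within 0.02 of 0 in each of these comparisons, where quantile normalization by itself holds it. Cdkn2b rose in all 3 comparisons and Cdkn2a was called in none. The 3 comparisons share the DMSO arrays. With no normalization between arrays the split of all called genes moved towards lower ones. It was 446 higher and 1765 lower for RVX2135, 557 and 903 for VE-821, and 1204 and 3306 for both drugs. The median over all genes was then -0.17, -0.09 and -0.25 in the same order. That setting was chosen after the data were seen, and under it 3 of the 7 rose with RVX2135, 1 rose and 2 fell with VE-821, and 4 rose and 2 fell with both.

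**Figure D1:**
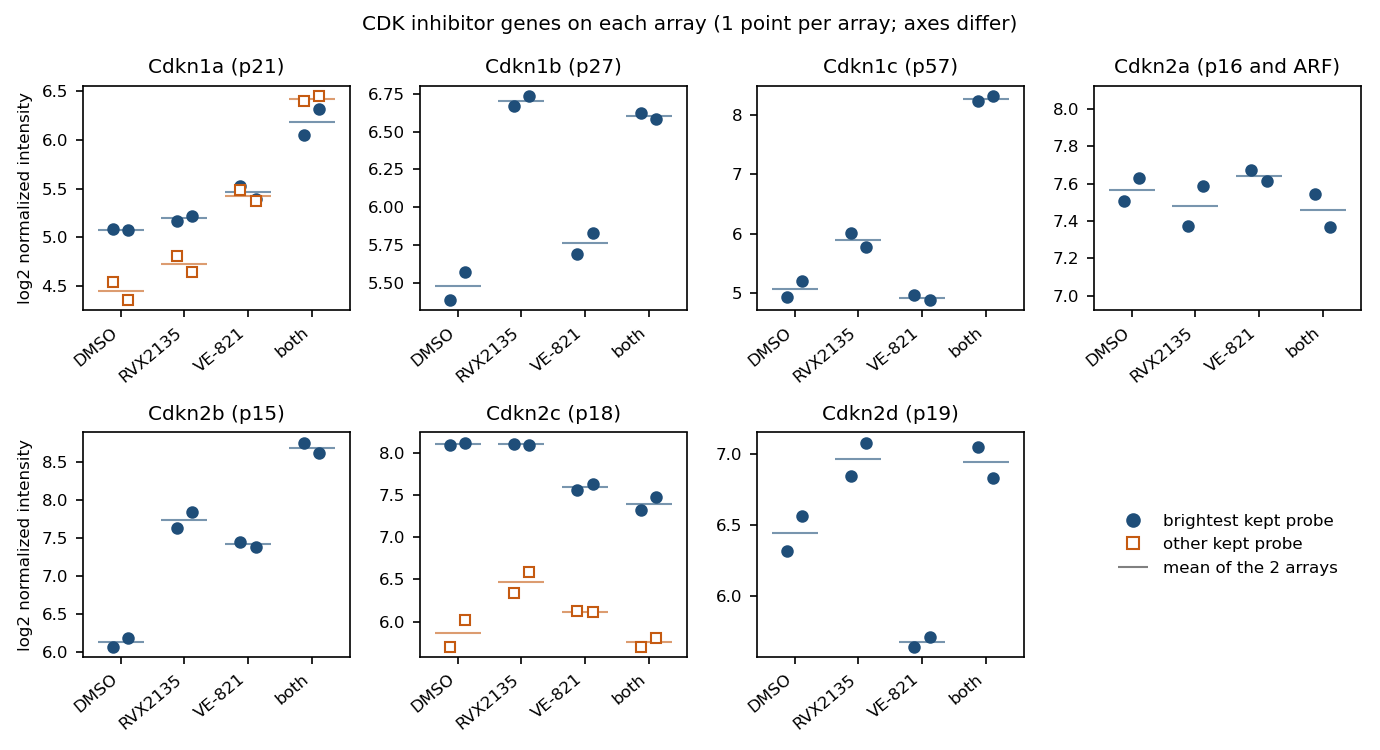
Log2 normalized intensity of the 7 CDK inhibitor genes on each of the 8 arrays, by treatment; filled circles are the brightest kept probe of the gene, open squares the other kept probe of Cdkn1a and Cdkn2c, and dashes the mean of the 2 arrays of a group. Cdkn1c stands at 8.23 and 8.31 with both drugs and below 6.1 on all other arrays, Cdkn2b rises in each treated group, and Cdkn2a stays between 7.37 and 7.68; the vertical axes differ between genes.

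Cdkn1a, the p21 gene and a classical target of p53, was raised mainly when both drugs were present. Its brightest probe read 5.08 and 5.07 with DMSO, 5.17 and 5.22 with RVX2135, 5.53 and 5.40 with VE-821, and 6.05 and 6.32 with both. The groups did not overlap and stood in that order, but the steps from DMSO to RVX2135 and from RVX2135 to VE-821 were not called (adjusted p = 0.478 and 0.109), and the last step to both drugs was (adjusted p = 0.000333). Against DMSO the change was 1.10 ± 0.11 with both drugs (log2, SE), or 2.15-fold (adjusted p = 7.84e-06), and 0.12 with RVX2135 alone (95% interval -0.14 to 0.37). With VE-821 alone it was 0.39 (adjusted p = 0.0317). That VE-821 call did not survive the removal of any 1 of the 4 arrays it compares (adjusted p = 0.124 and 0.12 without the first and second DMSO array, 0.167 and 0.0733 without the first and second VE-821 array), and it was also lost with no detection filter (0.0539) or no normalization between arrays (0.0682).

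A dimmer probe of Cdkn1a was dark in the controls. It read 4.54 and 4.36 with DMSO, 4.81 and 4.65 with RVX2135, 5.49 and 5.37 with VE-821, and 6.40 and 6.44 with both. It was not detected on either DMSO array and was detected on only 1 of the 2 RVX2135 arrays, so it passed the detection filter through the VE-821 and combination arrays, where it was high, and its calls add no support to those of the brightest probe. Measured against the detection limit on the DMSO arrays it was at least 3.38-fold higher with both drugs and at least 1.70-fold higher with VE-821. No p-value is given for these bounds, since the tests used the undetected DMSO readings. A bound of this kind sets the mean of the bright group against the lowest signal that still counted as detected on the dim arrays. The remaining Cdkn1a probe was detected on 1 array, replicate 2 of the combination, at an intensity of 16.4 and a detection p of 0.00627, and was left out of the tests.

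RefSeq, on the mouse assembly GRCm38.p6, lists 2 start sites for Cdkn1a, and the 250 bases upstream of each are shown because p21 is the member whose control by p53 is best known. In the first, at chr17:29090729-29090978 on the plus strand, capitals mark a match to the p53 response element, 20 positions long with at most 1 mismatch, 32 to 51 bases before the start. In the second, at chr17:29093519-29093768 on the plus strand, capitals mark GGGCGG, the GC box bound by Sp1, 41 to 46 and 99 to 104 bases before the start.
Cdkn1a upstream start: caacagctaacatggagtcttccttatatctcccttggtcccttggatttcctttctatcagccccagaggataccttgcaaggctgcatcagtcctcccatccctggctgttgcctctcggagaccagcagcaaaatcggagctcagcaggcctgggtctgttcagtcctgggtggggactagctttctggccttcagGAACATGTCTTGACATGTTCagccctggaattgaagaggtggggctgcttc
Cdkn1a downstream start: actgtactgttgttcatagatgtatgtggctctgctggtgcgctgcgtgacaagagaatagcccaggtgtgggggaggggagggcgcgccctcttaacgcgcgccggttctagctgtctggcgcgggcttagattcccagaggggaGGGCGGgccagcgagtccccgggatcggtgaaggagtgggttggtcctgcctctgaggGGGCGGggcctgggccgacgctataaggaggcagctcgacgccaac
Among all 32851 windows of this length, 0.0761% held a match to the p53 element on either strand, and 32.7% held GGGCGG. The allowance of 1 mismatch was set after the sequence was seen. A match describes the letters and shows no binding, and which transcript the Cdkn1a probes read was not determined.

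Cdkn1b, which encodes p27 and is known as a target of Foxo factors, rose with RVX2135 whether or not VE-821 was present. It read 5.38 and 5.57 with DMSO, 6.67 and 6.73 with RVX2135, 5.69 and 5.83 with VE-821, and 6.63 and 6.58 with both. The RVX2135 arrays and the combination arrays lay close together and above all others, with a difference of -0.10 between them (95% interval -0.33 to 0.14, adjusted p = 0.482). Against DMSO it rose 2.34-fold with RVX2135 (1.22 ± 0.11, adjusted p = 1.45e-05) and 2.19-fold with both drugs (1.13 ± 0.11, adjusted p = 3.88e-06). The difference with VE-821 alone was 0.28 (95% interval 0.05 to 0.52) and was not called (adjusted p = 0.0782), although the VE-821 arrays were both above the DMSO arrays. The remaining 2 Cdkn1b probes were near background: one was detected on no array, with intensities of -7.66 to -3.18, and the other on 1.

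The 250 bases upstream of the Cdkn1b start, at chr6:134920151-134920400 on the plus strand, are shown because this gene and Cdkn2b had the largest changes of the 7 with RVX2135 alone. Capitals mark GGGCGG, 56 to 61 bases before the start, and CCAAT, bound by the factor NF-Y, at 31 to 35 and 157 to 161 bases.
Cdkn1b: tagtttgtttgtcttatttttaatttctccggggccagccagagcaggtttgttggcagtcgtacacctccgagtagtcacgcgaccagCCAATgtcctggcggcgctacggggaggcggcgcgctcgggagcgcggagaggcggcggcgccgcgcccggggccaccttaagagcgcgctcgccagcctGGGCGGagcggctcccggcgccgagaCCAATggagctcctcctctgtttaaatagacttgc
CCAAT occurred in 33.8% of all windows. GTAAACA, the core to which Foxo proteins bind, was in none of the windows of these genes on either strand and in 3.17% of all windows, and its absence describes only these 250 bases.

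Cdkn1c, the p57 gene, which is imprinted and is the member most tied to cell cycle exit in development, showed the largest change of the 7. It read 4.94 and 5.20 with DMSO, 6.01 and 5.78 with RVX2135, 4.97 and 4.88 with VE-821, and 8.23 and 8.31 with both. The DMSO and VE-821 arrays overlapped at the bottom, the RVX2135 arrays stood above them, and the combination arrays stood far above all others. As deposited intensities these were 17.4 and 20.9, 47.6 and 35.1, 16.6 and 15.1, and 272.3 and 246.3, so the gene was dimmest, though detected, with DMSO and with VE-821. Against DMSO it rose 1.77-fold with RVX2135 (0.82 ± 0.12, adjusted p = 0.000516) and 9.19-fold with both drugs (3.20 ± 0.12, adjusted p = 2.95e-09). With VE-821 alone the difference was -0.14 (95% interval -0.41 to 0.12, adjusted p = 0.443). The combination exceeded RVX2135 alone 5.19-fold (adjusted p = 9.09e-08) and VE-821 alone 10.2-fold (adjusted p = 1.09e-08).

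Cdkn2a, read by 1 detected probe that the annotation does not assign to p16 or ARF, was called in no comparison. It read 7.51 and 7.63 with DMSO, 7.37 and 7.59 with RVX2135, 7.68 and 7.61 with VE-821, and 7.54 and 7.37 with both. The DMSO arrays overlapped those of each treated group, while both VE-821 arrays lay above the RVX2135 and combination arrays. The difference from DMSO was -0.09 with RVX2135 (95% interval -0.34 to 0.16, adjusted p = 0.599), 0.08 with VE-821 (-0.18 to 0.33, adjusted p = 0.684) and -0.11 with both (-0.36 to 0.14, adjusted p = 0.422). With no normalization between arrays the last difference was -0.42 and was called (adjusted p = 0.0269), in a setting where the median of all genes was itself at -0.25. With 2 arrays a group a change of a size inside these 95% intervals is not excluded. A further Cdkn2a probe was detected on no array (intensities of -7.15 to 4.87).

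Cdkn2b, the p15 gene and the immediate neighbour of Cdkn2a on chromosome 4 in the naming table, rose in every treated group. It read 6.08 and 6.19 with DMSO, 7.63 and 7.85 with RVX2135, 7.46 and 7.38 with VE-821, and 8.76 and 8.62 with both. No group overlapped another, and each single-drug group lay between DMSO and the combination. Against DMSO the rise was 3.05-fold with RVX2135 (1.61 ± 0.11, adjusted p = 2.81e-06), 2.44-fold with VE-821 (1.29 ± 0.11, adjusted p = 1.1e-05) and 5.89-fold with both (2.56 ± 0.11, adjusted p = 8.51e-09). RVX2135 and VE-821 alone differed by 0.32 (95% interval 0.07 to 0.57), which was not called (adjusted p = 0.0564). That difference was called without RVX2135 replicate 1 (adjusted p = 0.0447) and when only probes detected on all arrays were tested (adjusted p = 0.042). The combination exceeded RVX2135 alone by 0.95 (adjusted p = 3.94e-05) and VE-821 alone by 1.27 (adjusted p = 4.25e-06).

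The 250 bases upstream of the Cdkn2b start, at chr4:89311033-89311282 on the minus strand, are shown because this was the single gene of the 7 that rose in all 3 comparisons with DMSO. Capitals mark TGACGTCA, the full cyclic AMP response element to which CREB and ATF factors bind, 39 to 46 bases before the start.
Cdkn2b: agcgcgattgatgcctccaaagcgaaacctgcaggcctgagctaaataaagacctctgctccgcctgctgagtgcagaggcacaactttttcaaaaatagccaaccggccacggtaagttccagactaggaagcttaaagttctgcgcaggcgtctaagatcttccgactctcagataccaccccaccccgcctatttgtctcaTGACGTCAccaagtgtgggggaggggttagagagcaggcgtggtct
This element was in 1.55% of all windows, and it was added to the search after the sequence was seen. RefSeq windows were found for 6 of the 7 genes, 9 in all, and those of Cdkn1a and Cdkn2b were the ones with a p53 element or TGACGTCA. GGGCGG was in windows of Cdkn1a, Cdkn1b, Cdkn2a, Cdkn2c and Cdkn2d. The E-box CACGTG bound by Myc (6.02% of all windows), the E2F site TTTGGCGC (0.417%) and the TATA box TATAAA (12.4%) were in no window of these genes, and another E2F site, TTTCCCGC (0.895%), was in 1 window of Cdkn2a. Overlaps between motifs were allowed, and both strands were read. Motifs other than the p53 element were matched letter for letter, so variants of them were not counted.

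Cdkn2c, the p18 gene, fell wherever VE-821 was present when read by its brightest probe. That probe read 8.10 and 8.12 with DMSO, 8.11 and 8.10 with RVX2135, 7.56 and 7.63 with VE-821, and 7.32 and 7.48 with both. The DMSO and RVX2135 arrays overlapped, and all arrays with VE-821 lay below them. Against DMSO the gene fell by 0.51 with VE-821 (adjusted p = 0.00406) and by 0.71 with both drugs, or 1.63-fold lower (SE 0.10, adjusted p = 9.27e-05), while the difference with RVX2135 was -0.00 (95% interval -0.23 to 0.22, adjusted p = 0.979).

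A dimmer Cdkn2c probe, detected on all arrays, disagreed. It read 5.70 and 6.02 with DMSO, 6.34 and 6.59 with RVX2135, 6.12 and 6.12 with VE-821, and 5.71 and 5.81 with both. The RVX2135 arrays were the highest, and the combination overlapped DMSO. By this probe the gene rose by 0.60 ± 0.13 with RVX2135 (adjusted p = 0.00543 over all kept probes), and the differences of 0.26 with VE-821 (adjusted p = 0.188) and -0.10 with both drugs (adjusted p = 0.515) were not called. The probes shared 1 result, a fall from RVX2135 alone to both drugs, by 0.70 on the brightest probe (adjusted p = 0.000158) and by 0.71 on the dimmer one (adjusted p = 0.000905). Any direction for Cdkn2c against DMSO is therefore that of 1 probe, and which transcripts these probes read was not determined.

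Cdkn2d, the p19 INK4 gene, moved in opposite directions with the single drugs. It read 6.32 and 6.56 with DMSO, 6.84 and 7.08 with RVX2135, 5.64 and 5.71 with VE-821, and 7.05 and 6.83 with both. The VE-821 arrays were lowest, DMSO came next, and the RVX2135 and combination arrays overlapped at the top. Against DMSO it rose by 0.52 ± 0.13 with RVX2135, or 1.43-fold (adjusted p = 0.0102), fell by 0.76 with VE-821, or 1.70-fold lower (adjusted p = 0.00141), and rose by 0.50 with both, or 1.41-fold (adjusted p = 0.00547). The combination did not differ from RVX2135 beyond the spread (-0.02, adjusted p = 0.899) and exceeded VE-821 by 1.26 (adjusted p = 1.18e-05). The rise with RVX2135 was not called without DMSO replicate 1 (adjusted p = 0.0979), without RVX2135 replicate 2 (0.0924) or with no normalization between arrays (0.145), and that with both drugs not without DMSO replicate 1 (0.0606) or with no normalization between arrays (0.33).

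**Figure D2:**
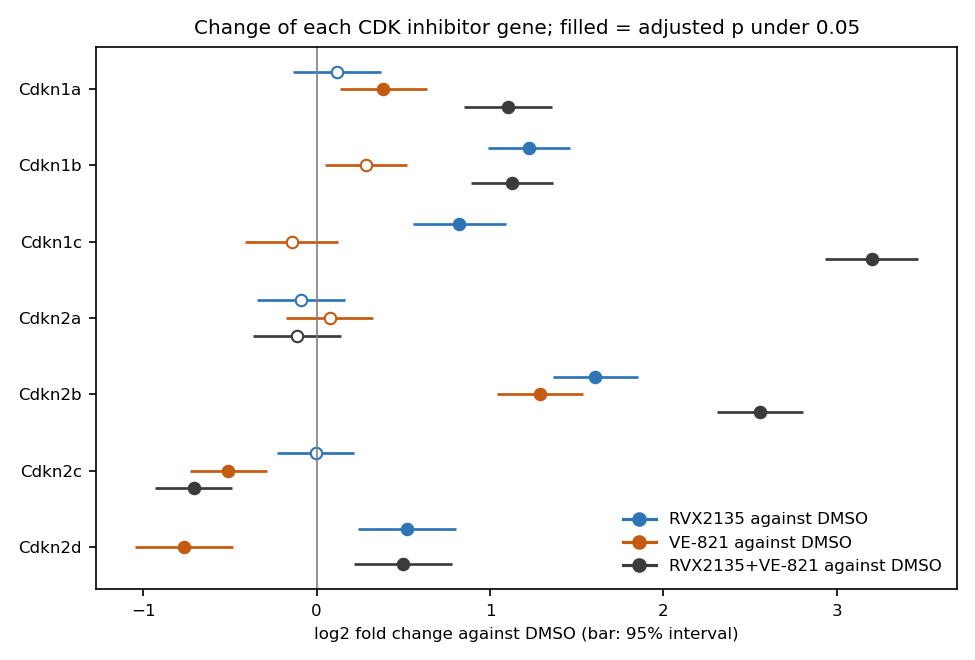
Log2 fold change against DMSO of each CDK inhibitor gene with RVX2135, VE-821 or both drugs, from the brightest probe; bars are 95% intervals of limma's fit and filled points have an adjusted p under 0.05. With both drugs Cdkn1c (3.20) and Cdkn2b (2.56) lie farthest to the right, Cdkn2c lies at -0.71, and the intervals of Cdkn2a include 0 in all 3 comparisons.

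The single drugs were also set against each other. With RVX2135 4 of the 7 genes were higher than with VE-821 and none was lower, where 26.5% of all genes were called (13.2% higher and 13.3% lower). These were Cdkn1b (by 0.94, adjusted p = 8.12e-05), Cdkn1c (0.97, adjusted p = 0.000165), Cdkn2c by its brightest probe (0.51, adjusted p = 0.00357) and Cdkn2d (1.28, adjusted p = 2.92e-05). The Cdkn2c call was lost with its other probe (0.34, adjusted p = 0.0778) and with no normalization between arrays (adjusted p = 0.0683). For Cdkn1a the difference was -0.27 by the brightest probe (adjusted p = 0.109). The dimmer probe gave -0.70 (adjusted p = 0.00108), but it was below detection on RVX2135 replicate 2 and was kept through the groups in which it is high.

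Adding VE-821 to RVX2135 raised 3 of the 7 genes and lowered 1, where 51.2% of all genes were called (24.8% higher and 26.4% lower). Cdkn1c (2.38), Cdkn1a (0.99, adjusted p = 3.44e-05) and Cdkn2b (0.95) rose and Cdkn2c fell. Adding RVX2135 to VE-821 raised 5 and lowered none, where 50.7% of all genes were called (24.9% higher and 25.8% lower). The 5 were Cdkn1c (3.34), Cdkn2b (1.27), Cdkn2d (1.26), Cdkn1b (0.84, adjusted p = 6.51e-05) and Cdkn1a (0.72). Cdkn2a (-0.19, adjusted p = 0.197) and the brightest Cdkn2c probe (-0.20, adjusted p = 0.124) were not called here. With no normalization between arrays both were called lower, at -0.40 (adjusted p = 0.0418) and -0.42 (adjusted p = 0.0324), with the median of all genes at -0.17. The dimmer Cdkn2c probe was also called lower here (-0.36, adjusted p = 0.0383 over all kept probes).

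The interaction is the log2 change with both drugs minus the sum of the single-drug changes. It was called for 3 of the 7 genes, all above the sum, where 28.6% of all genes were called (13.1% above and 15.5% below). For Cdkn1c the single-drug changes summed to 0.68 and the measured change was 3.20, an interaction of 2.52 ± 0.17, or 5.74-fold (adjusted p = 9.02e-06). Cdkn1a had a sum of 0.50 against 1.10 (interaction 0.60 ± 0.16, adjusted p = 0.0179), and Cdkn2d a sum of -0.24 against 0.50 (interaction 0.74 ± 0.18, adjusted p = 0.0113). The Cdkn1a interaction was not called without DMSO replicate 1 (adjusted p = 0.0521), RVX2135 replicate 1 (0.0509), VE-821 replicate 2 (0.0619) or replicate 2 of the combination (0.0555), or with no normalization between arrays (0.151).

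For Cdkn2b the sum was 2.90 and the measured change 2.56, and the interaction of -0.34 was not called (95% interval -0.69 to 0.01, adjusted p = 0.136). Cdkn1b had a sum of 1.51 against 1.13 (interaction -0.38, 95% interval -0.71 to -0.05, adjusted p = 0.0834). The remaining interactions were -0.10 for Cdkn2a (adjusted p = 0.685) and -0.19 for the brightest Cdkn2c probe (adjusted p = 0.336), and the dimmer Cdkn2c probe gave -0.97 ± 0.18 (adjusted p = 0.00347). An uncalled interaction does not show that the drugs acted additively on a gene.

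**Figure D3:**
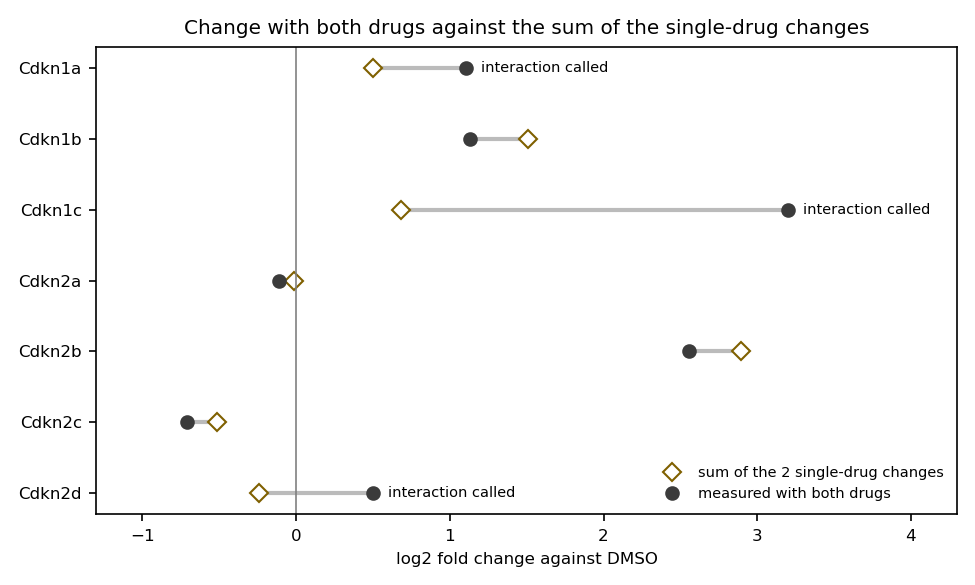
Sum of the single-drug log2 changes (open diamonds) and the change measured with both drugs (filled circles), each against DMSO, for the 7 CDK inhibitor genes; grey lines join the values of a gene. The widest gap is that of Cdkn1c, from 0.68 to 3.20, and the interaction was called for Cdkn1a, Cdkn1c and Cdkn2d.

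The genes whose log2 levels followed each member most closely over the 8 arrays are given as a description, since with 4 groups such likeness largely repeats the group means. For Cdkn1c they were Esyt2 (Pearson r = 0.999), Dnajb1, which encodes a heat shock co-chaperone (0.995), and Pcsk7, a proprotein convertase (0.994). Cdkn1b was followed by Cir1 (0.996), the antiproliferative gene Tob1 (0.990) and the kinase gene Dyrk1b (0.989). Esyt2 changed by 0.42, -0.07 and 1.73 with RVX2135, VE-821 and both drugs, and Tob1 by 1.64, 0.21 and 1.60. Cdkn1a was followed by Zfp574 (0.990), Arf2 (0.985) and Nqo1, a gene of the oxidative stress response (0.985).

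Among the INK4 genes Cdkn2b was followed by Rnf166 (0.996), H2aw (0.995) and the kinase gene Fyn (0.993). The brightest Cdkn2c probe was followed by Anapc5, a subunit of the anaphase-promoting complex (0.998), the helicase gene Wrn (0.988) and Map2 (0.987), of which Map2 changed by 0.08, -1.30 and -1.89 with RVX2135, VE-821 and both drugs. Cdkn2d had Cyb5r3 (0.973), Sil1 (0.964) and Mfge8 (0.958). For Cdkn2a, whose level hardly varied, the closest were Eif1b (0.948), Hoxb4 (0.911) and Tmem234 (0.910).

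For the list genes named from here on the SE was 0.10 to 0.16 on the log2 scale, and no list was tested against other genes. Of 14 listed genes for kinases and cyclins of the cell cycle and for the CDK-activating kinase, 9 were measured. With RVX2135 6 of them fell and 1 rose (list median -0.48), 3 fell with VE-821 (-0.32), and 8 fell and 1 rose with both drugs (-0.77). The called shares were 77.8%, 33.3% and 100%, where 30.5%, 23.8% and 59.7% of all genes were called. With RVX2135 the mitotic kinase Cdk1 fell by 0.69 (adjusted p = 0.00055) and the S-phase cyclin Ccne2 by 0.74 (adjusted p = 0.00169). With VE-821 the change was similar, at -0.70 for Cdk1 (adjusted p = 0.000565) and -0.80 for Ccne2 (adjusted p = 0.00136). With both drugs Ccnd1, a cyclin D partner of Cdk4 and Cdk6, fell by 2.81 ± 0.11 (adjusted p = 4.28e-09), Ccne2 fell by 1.53 (adjusted p = 1.81e-06), and Mnat1, which assembles the CDK-activating kinase, rose by 0.82 (adjusted p = 3.63e-05). Of 8 pocket proteins and subunits of the DREAM repressor complex 3 were measured. Rbl1 (p107) fell by 0.75 with RVX2135 (adjusted p = 0.00371), by 0.61 with VE-821 (adjusted p = 0.0157) and by 1.46 with both (adjusted p = 8.96e-06), and Rb1, the retinoblastoma gene, fell by 0.77 with VE-821 (adjusted p = 0.00166) and by 0.58 with both (adjusted p = 0.0026).

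All 14 listed ubiquitin ligase subunits and partners that turn over CDK inhibitor proteins were measured. With RVX2135 3 fell, 5 fell with VE-821, and 6 fell and 3 rose with both drugs, with list medians of -0.10, -0.14 and -0.23. This made called shares of 21.4%, 35.7% and 64.3%, against 30.5%, 23.8% and 59.7% of all genes. Skp2, the F-box protein that marks p27 for degradation, fell by 0.83 with RVX2135 (adjusted p = 0.00016), by 0.49 with VE-821 (adjusted p = 0.00541) and by 1.18 with both (SE 0.10, adjusted p = 1.91e-06). Psme3, a proteasome activator that degrades p21 without ubiquitin, fell by 1.20 with both drugs (adjusted p = 2.36e-05), and the ligase scaffold Cul4b rose by 0.68 (adjusted p = 0.000328).

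Of 17 listed transcription factors that are known to raise CDK inhibitor genes 12 were measured. Of them 3 rose and 2 fell with RVX2135, 4 rose and 2 fell with VE-821, and 8 rose and 2 fell with both drugs. List medians were 0.17, 0.03 and 0.54. Called shares were 41.7%, 50% and 83.3%, against 30.5%, 23.8% and 59.7% of all genes. Klf6, known to activate p21, rose by 1.14 with RVX2135 (adjusted p = 0.000203), by 2.33 with VE-821 (adjusted p = 8.53e-07) and by 3.05 ± 0.15 with both (adjusted p = 1.78e-08). E2f1 fell by 0.52 with RVX2135 (adjusted p = 0.0032). Klf4, also an activator of p21, rose by 1.81 with both (adjusted p = 6.32e-08). Of the Ets factors, known in human cells to activate p16, Ets2 rose by 1.90 with VE-821 (adjusted p = 6.32e-07) and by 1.17 with both (adjusted p = 4.47e-06), and Ets1 fell by 0.79 (adjusted p = 0.00083) and by 1.83 (adjusted p = 2.31e-07).

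Of 16 Polycomb subunits and other repressors 11 were measured. Among them 2 rose and 3 fell with RVX2135, 1 rose and 1 fell with VE-821, and 3 rose and 4 fell with both. Medians of the list were -0.13, -0.01 and -0.16. Shares called were 45.5%, 18.2% and 63.6%, against 30.5%, 23.8% and 59.7% of all genes. The repressor Gfi1 fell by 0.94 with RVX2135 (adjusted p = 8.52e-05) and by 1.18 with both (adjusted p = 2.71e-06), and rose by 0.38 with VE-821 (adjusted p = 0.027). Bmi1, the Polycomb protein known to silence the Cdkn2a locus, fell by 0.59 with RVX2135 (adjusted p = 0.0078) and by 0.61 with both (adjusted p = 0.00241). The Polycomb subunit genes Cbx8 and Rnf2 rose with both drugs, by 0.96 (adjusted p = 7.17e-05) and 0.87 (adjusted p = 7.56e-05). Ezh2, the Polycomb methyltransferase, fell by 0.43 with RVX2135 (adjusted p = 0.0109) and by 0.49 with VE-821 (adjusted p = 0.00736).

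Of 7 listed genes between ARF and p53 or downstream of p53, 6 were measured, and 1 fell with RVX2135, 1 rose and 1 fell with VE-821, and 2 rose and 2 fell with both drugs (list medians -0.02, -0.13 and -0.15). Mdm2, the ligase for p53 and itself a p53 target, rose by 0.34 with VE-821 (adjusted p = 0.0319) and by 0.75 with both (adjusted p = 6.1e-05), and Ccng1, another p53 target, fell by 0.55 (adjusted p = 0.0266) and by 1.09 (adjusted p = 0.000103). The called shares of this list were 16.7%, 33.3% and 66.7%, against 30.5%, 23.8% and 59.7% of all genes.

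**Figure D4:**
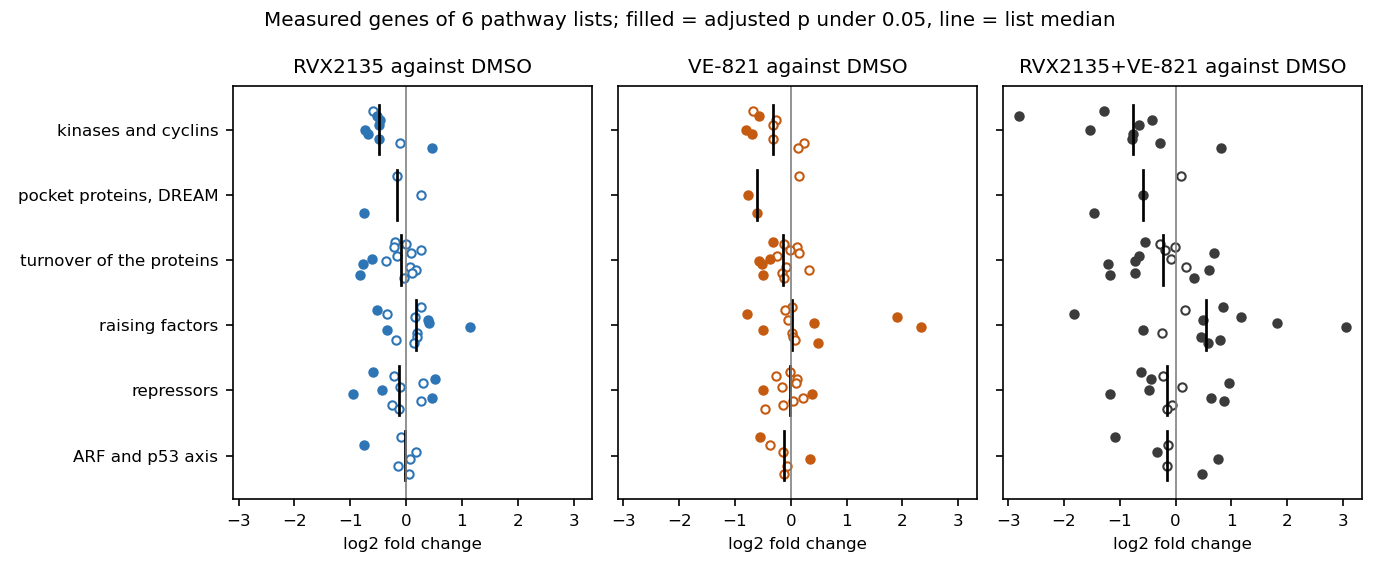
Log2 fold change against DMSO of every measured gene of 6 lists around the CDK inhibitors, in 3 panels by treatment; filled points have an adjusted p under 0.05 and the black line is the list median. Kinases and cyclins lie mostly left of 0 (medians -0.48, -0.32 and -0.77), and the raising factors spread widest with both drugs, from Ets1 at -1.83 to Klf6 at 3.05.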

How the data were processed

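Transcript levels were measured on 8 Illumina arrays, 4 groups of 2, and groups and replicate numbers came from the array titles. The authors deposited probe intensities on a linear scale without normalization between arrays, and values down to -14.06 show that a background had been subtracted. Each deposited intensity came with its detection p-value. A further deposited table of intensities normalized by the authors served as an alternative, by a method the sources used here do not name. Per the submitters' processing notes, GenomeStudio was used (no version given).

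From these, limma's neqc (version 3.58.1, run in R 4.3.3) gave log2 values: background correction by means of the deposited detection p-values, an offset of 16, then quantile normalization. Probes with a detection p-value below 0.05 in each array of some group were kept (11761 of 25697 probes), and the brightest kept probe stood for a gene, which gave 7947 genes. The model had 1 mean per group on all 8 arrays (lmFit and eBayes), with Benjamini-Hochberg adjustment over all genes within each of 7 comparisons. Single probes of Cdkn1a and Cdkn2c were tested over all kept probes. Only the model fit was tried on simulated log2 values. The background correction, the detection filter and the choice of probe were not simulated. The number of arrays limits the precision.

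Symbols came from the platform annotation (23978 probes with 1 symbol, 0 with several, 1719 with none), and 23962 were updated through Entrez identifiers with the table of GRCm38.p6. The genes, the lists, the tests and the alternatives were chosen with earlier results of these data known. The text names all 7 genes, for each the 3 genes of highest correlation over the arrays (clone and predicted-gene symbols passed over), and up to 4 members of a list per comparison by smallest adjusted p. Replicate numbers were not taken to pair arrays. The sample descriptions give all arrays of a replicate number the same letter, A or B, but do not say what it stands for. The alternatives were the authors' normalized values, quantile normalization without background correction, other detection filters, other probe choices, fits to the compared groups alone, a replicate block, no normalization between arrays, and each array left out.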

Additional observations from a re-analysis of the deposited data

Results flagged for a closer look

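The effect of RVX2135 differed by the presence of VE-821 for 3 of the 7 CDK inhibitor genes, by limma's test of the interaction on 2 arrays a group, where 28.6% of all genes were called. For Cdkn1c the log2 interaction was 2.52 (adjusted p = 9.02e-06): RVX2135 changed the gene by 0.82 without VE-821 and by 3.34 with it. For Cdkn1a it was 0.603 (adjusted p = 0.0179), from 0.12 without VE-821 to 0.72 with it. This call was lost when any of 4 single arrays was left out (adjusted p = 0.0509 to 0.0619) and with no normalization between arrays (0.151), which leaves 2 genes. The dimmer Cdkn1a probe gave 0.713 (adjusted p = 0.00827 over all kept probes), but it was not detected on either DMSO array or on RVX2135 replicate 2 and was kept through the groups in which it is high, so this value is no measured interaction and supports nothing. For Cdkn2d it was 0.742 (adjusted p = 0.0113), from 0.52 to 1.26. The dimmer Cdkn2c probe gave an interaction of -0.966 (adjusted p = 0.00347 over all kept probes), from 0.60 without VE-821 to -0.36 with it, whereas the brightest probe of the gene gave -0.19 (adjusted p = 0.336).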

How the results depend on the processing

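Over 7 genes and 7 comparisons there were 49 pairs, 30 of them called. Of these 23 stayed called under every alternative run for them, and 12 of the 19 uncalled pairs stayed uncalled. The number of the 7 genes called moved by at most 1.5 times in the comparisons and alternatives run, a limit reached by the interaction. With each array left out it was 3 to 4 for RVX2135, 3 to 4 for VE-821 and 5 to 6 for both drugs against DMSO, 4 to 4 for both against RVX2135, 5 to 5 for both against VE-821, 4 to 5 for RVX2135 against VE-821 and 2 to 3 for the interaction. The calls lost or gained are given in the report beside each gene.

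The count over all genes was less stable. With each array left out it was 1447 to 2490 for RVX2135 (main value 2420; 1447 without DMSO replicate 1 and 1463 without RVX2135 replicate 2), 946 to 1969 for VE-821 (main value 1891; 1032 without DMSO replicate 1, 1178 without DMSO replicate 2 and 946 without VE-821 replicate 2), and 1370 to 2184 for RVX2135 against VE-821 (main value 2109; 1384 without RVX2135 replicate 2, 1372 without VE-821 replicate 1 and 1370 without VE-821 replicate 2). It was 4030 to 4762 for both drugs against DMSO, 3369 to 3996 for both against RVX2135, 3145 to 4046 for both against VE-821 and 1576 to 2051 for the interaction. With no normalization between arrays, an alternative chosen after the data were seen, the interaction was called for 1349 genes against 2272, and the median of all genes moved by -0.17 for RVX2135 and by -0.23 for both drugs against DMSO, and by -0.17 for both against VE-821. Under that setting Cdkn2d changed by 0.32 with RVX2135 and by 0.19 with both drugs, where the main fit gave 0.52 and 0.50. Neither change was called under it. The other Cdkn2c probe gave 0.60 for RVX2135 against DMSO (adjusted p = 0.00543), where the brightest probe gave -0.004 (adjusted p = 0.979). For VE-821 against DMSO it gave 0.26, which was not called (adjusted p = 0.188), where the brightest probe gave -0.51 (adjusted p = 0.00406). The cause of these changes was not tested.

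With the replicate number as a block the count of the 7 genes called was 4, 4 and 6 for RVX2135, VE-821 and both drugs against DMSO, as without it, no call on any of the 7 genes changed, and 4825 genes in all were called for both drugs against 4747. Deviations of same-numbered arrays correlated at -0.03 to 0.18 between groups, which does not show whether these arrays share a batch. Their sample descriptions share a letter, A or B, whose meaning is not given.

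Precision rests on 2 arrays a group. Cdkn1a and Cdkn1c lay near background with DMSO, where the offset compresses fold changes, and 4 of the 13 probes were too dim to test.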
